A study of Mus musculus with 4 samples.

Results

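The alcohol dehydrogenases (Adh), aldehyde dehydrogenases (Aldh), aldo-keto reductases (Akr), flavin-containing monooxygenases (Fmo) and carbonyl reductases (Cbr) were followed in mice with a constitutively active aryl hydrocarbon receptor (AhR) and in wild-type mice, in their livers and duodena. Members were all genes whose updated symbol began with Adh, Aldh, Akr, Fmo or Cbr and a number, with the retinal dehydrogenases named Aldh1a left out. This gave 46 of the 18194 genes named on the array: 7 Adh, 16 Aldh, 15 Akr, 4 Fmo and 4 Cbr genes. Other RefSeq symbols that match this pattern are not analysed here.

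AhR is a transcription factor that ligands such as dioxin switch on, and the transgenic form acts without a ligand. The 4 groups were wild-type liver, transgenic liver, wild-type duodenum and transgenic duodenum. Each was 1 RNA pool from 3 female mice aged 5 to 6 weeks, kept on standard chow and measured on 1 Affymetrix Mouse Genome 430 2.0 array. The sources used here do not give the strain, the promoter that drives the transgene or the number of transgenic lines. With 1 array per group there is no spread between replicates, so the values below carry no error and no test, and they describe these pools.

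These enzymes handle alcohols, aldehydes and ketones. ADH enzymes oxidise alcohols such as ethanol and retinol to aldehydes, and ALDH enzymes oxidise aldehydes to acids. AKR and CBR enzymes mostly run the other way and reduce carbonyl groups of steroids, sugars and quinones with NADPH. FMO enzymes use flavin and oxygen to oxidise nitrogen and sulfur atoms in drugs and dietary amines. Liver and upper intestine both carry these families, and Aldh3a1 is a textbook gene of the AhR response.

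Values are MAS5 signals on a linear scale, and a ratio compares the same probe set between arrays. Signals of different probe sets are not comparable with each other. Signals below 129.3, the mean of the arrays' 40th percentiles, were raised to this floor, and a fold with 1 array below the floor is written as at least that size. On all 4 arrays 31 members lay above the floor, and Cbr2 lay below it on all 4. Per array, 38 to 42 members were above the floor, as were 12768 to 13688 of all genes. A gene is read through its brightest probe set, and 8 members are read through one that can bind several transcripts. Markers matched the tissue labels: 9 of 9 hepatocyte markers were 2-fold or more higher in wild-type liver than in wild-type duodenum, and 8 of 8 enterocyte markers were lower. In bulk RNA, fewer cells of a type and less RNA per cell cannot be told apart.

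**Figure D1:**
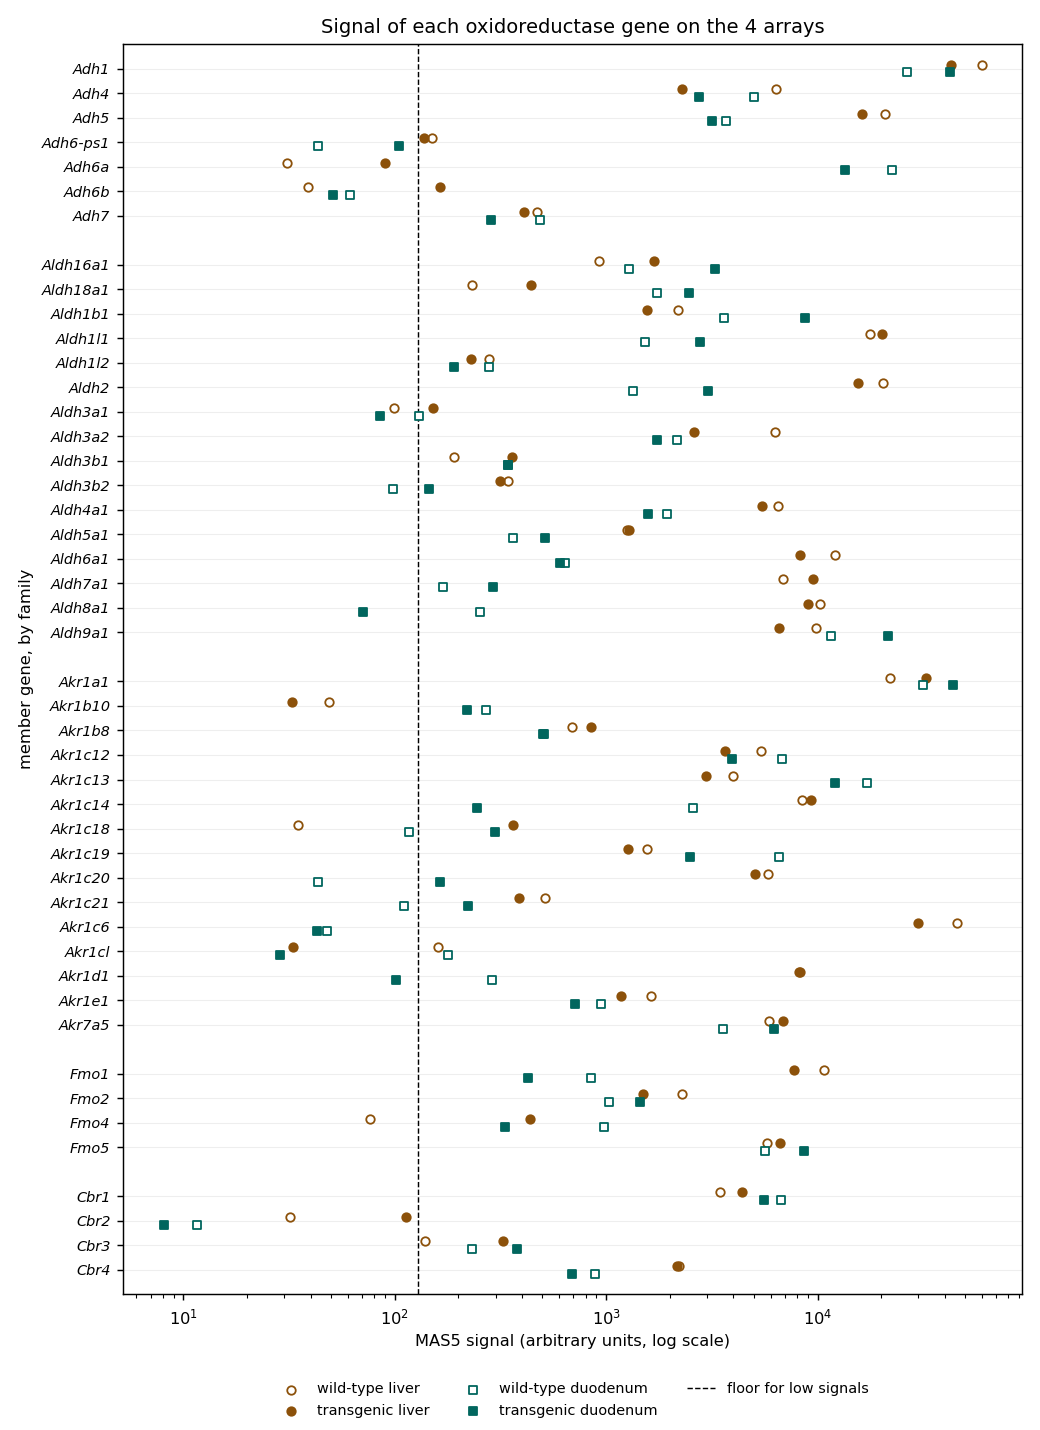
MAS5 signal (arbitrary units, log scale) of the brightest probe set of each of the 46 members, 1 point per array. Circles are liver, squares are duodenum, open symbols are wild type, filled symbols are transgenic, and the dashed line is the floor of 129.3; the gaps between tissues are mostly wider than those between genotypes.

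The first comparison set wild-type liver against wild-type duodenum, to show where these enzymes are transcribed without the transgene. Of the 43 members above the floor on at least 1 of the arrays, 19 were 2-fold or more higher in liver, where 13.6% of all genes were, and 6 were 2-fold or more lower, where 18.5% of all genes were. The members' median log2 ratio of liver over duodenum was 0.45, and that of all genes was -0.18. The transgenic arrays are separate pools and gave the same tissue call for 15 of the 19 liver members and for 3 of the 6 duodenal ones. At 1.5-fold or more, 21 members were higher in wild-type liver (21.9% of all genes) and 10 were lower (32.5% of all genes). In the transgenic pair, 15.9% of all genes were 2-fold or more higher in liver and 17.5% were lower. Of all genes called in the wild type, 61.4% of those higher and 53.9% of those lower in liver had the same call in the transgenic pair.

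Among the ALDH genes, the 3 widest liver excesses on the brightest probe set were those of genes of amino acid breakdown. Aldh8a1, of the kynurenine branch of tryptophan breakdown, had a signal of 10233.5 in wild-type liver and 252 in wild-type duodenum, 40.6-fold apart. Aldh7a1, of lysine breakdown, was 40.4-fold higher in liver, at 6866 against 170.0, but the mean over its probe sets gave a log2 ratio of 1.92 and another probe set gave at least 2.52-fold. Aldh6a1, of valine breakdown, was 18.9-fold higher, at 12096 against 641. Aldh4a1, of proline breakdown, and Aldh5a1, of GABA breakdown, were 3.37-fold and 3.45-fold higher in liver. All 5 kept a liver excess of 2-fold or more in the transgenic pair. Aldh18a1, which makes proline, had the opposite pattern, at 232 in liver and 1740 in duodenum, 7.50-fold lower in liver.

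Aldh2, the mitochondrial enzyme that clears acetaldehyde, was 15.2-fold higher in wild-type liver, at 20384 against 1345. Aldh1l1, a folate-dependent dehydrogenase that releases carbon dioxide from formyl groups, was 11.6-fold higher in liver, at 17763 against 1531. The log2 ratio for Aldh2 was 2.60 as the mean over probe sets, and that for Aldh1l1 was 1.41 without multi-transcript probe sets. Aldh3a2, which oxidises fatty aldehydes, was 2.92-fold higher in liver. Aldh9a1, of carnitine synthesis, was 1.18-fold lower in liver, and Aldh1b1, a mitochondrial relative of Aldh2, was 1.66-fold lower.

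The Adh genes lie side by side on chromosome 3, with no other protein-coding gene between the first and the last member in the annotation. Neighbours differed widely in their tissue pattern. Adh6a had a signal of 30.9 in wild-type liver and 22460 in wild-type duodenum, so it was at least 174-fold lower in liver. In the transgenic pair the same gene had 90.0 and 13524. Adh5, which oxidises the glutathione adduct of formaldehyde, was 5.67-fold higher in liver on its brightest probe set, at 20841.5 against 3673. Its other probe set had 24.9 and 288, at least 2.23-fold lower in liver, so the log2 ratio turned to -0.51 as the mean over probe sets and to -1.16 without multi-transcript probe sets. Adh1, the main ethanol and retinol dehydrogenase, was 2.25-fold higher in wild-type liver, at 59697 against 26481, while the transgenic pair gave 42674 and 42379. Adh4 was 1.27-fold higher in liver, and Adh7, known from the stomach, was 1.03-fold lower.

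The Akr1c genes and Akr1e1 form a similar run on chromosome 13. In their order along the chromosome, Akr1c13, Akr1c19 and Akr1c12 follow each other, and all 3 were lower in liver, by 4.33-fold, 4.24-fold and 1.25-fold. The next genes along, Akr1c6, Akr1c20 and Akr1c21, were all higher in liver. Akr1c6, a steroid dehydrogenase, had 45684 in wild-type liver and 48.0 in duodenum, so it was at least 353-fold higher in liver. Akr1c20 had 5825 against 43.6, at least 45.1-fold higher, and Akr1c21 had 516 against 111, at least 3.99-fold higher. As the mean over probe sets the log2 ratio of Akr1c20 was 3.67. The transgenic pair ran in the same direction for all 6 genes. These paralogs are close in sequence, and 1 probe set that is listed for both Akr1c12 and Akr1c13 was not used, so signals may be shared among them.

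**Figure D2:**
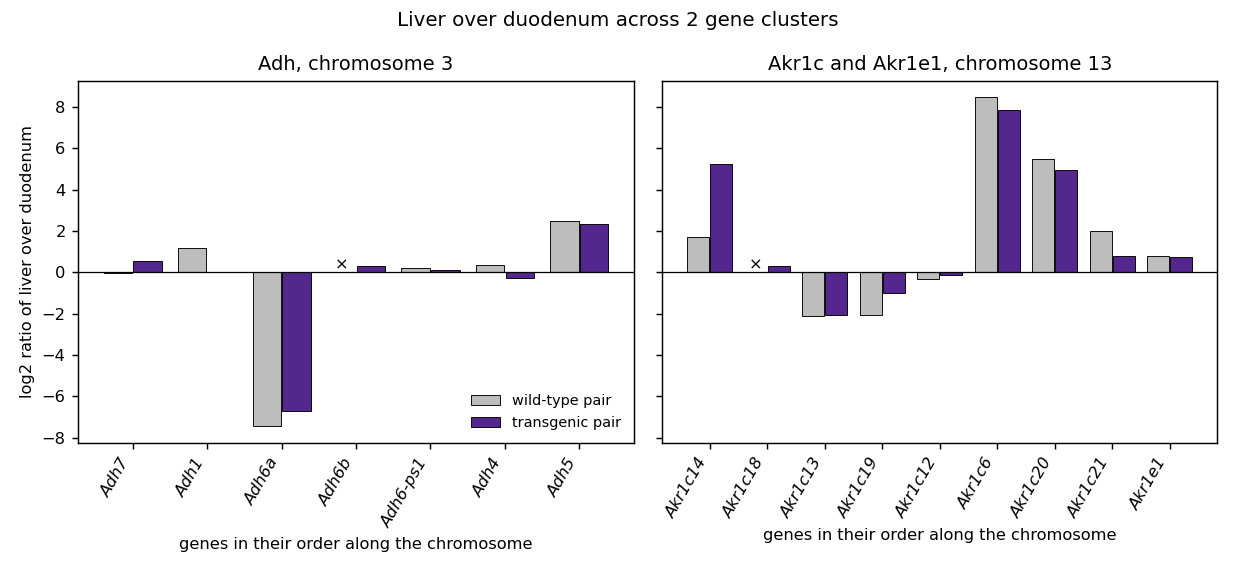
Log2 ratio of liver over duodenum for the 7 Adh genes and for the 8 Akr1c genes with Akr1e1, in their order along chromosomes 3 and 13; grey bars are the wild-type arrays and purple bars the transgenic arrays. A cross marks a gene below the floor on both arrays; in the wild type Adh6a lies at -7.44 and Akr1c6 at 8.46, and both keep their direction in the transgenic pair.

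Akr1d1, the steroid reductase that shapes the bile acid ring, had 8239 in wild-type liver and 289 in wild-type duodenum, 28.5-fold apart. Fmo1 was 12.7-fold higher in liver, at 10728 against 845, and Fmo2 was 2.20-fold higher. Fmo4 ran the other way, at 76.2 in liver and 982 in duodenum, at least 7.59-fold lower in liver. Fmo5 was level on its brightest probe set, at 5743 and 5620, but its other probe sets were 1.23-fold and 1.75-fold higher in liver. Without multi-transcript probe sets its log2 ratio was 0.81. Of the carbonyl reductases, the mitochondrial Cbr4 was 2.50-fold higher in liver, and Cbr1, which reduces quinones and prostaglandins, was 1.94-fold lower. Akr1a1, the aldehyde reductase of vitamin C synthesis, was 1.43-fold lower in liver on its brightest probe set, at 21940 against 31436. Its other probe sets ran from 1.30-fold lower to 1.04-fold higher, and the mean over probe sets gave a log2 ratio of -0.21.

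The second comparison asked how these genes differed in liver when AhR was active. Of 43 measured members, 3 were higher by 2-fold or more in the transgenic pool, where 4.72% of all genes were, and 2 were lower by that much, where 3.58% of all genes were. These shares lie near the background. On the log2 scale the median ratio (transgenic over wild type) was -0.18 for the members and 0.01 for all genes. The spiked hybridization controls had a median log2 ratio of -0.68 in liver. Scaling on them used each array's median over the controls, each centred on its mean across arrays, so the shift differs from that value. On this hybridization-control scale the members' median was 0.55 and that of all genes 0.72. At 1.5-fold or more, 6 members were higher (13.5% of all genes) and 5 were lower (12.1% of all genes).

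The lower members at 2-fold were Adh4 and Aldh3a2, and both are bright in liver. Adh4, a class of alcohol dehydrogenase that acts on long-chain alcohols and retinol, had a signal of 6385 in wild-type liver and 2288 in transgenic liver, 2.79-fold lower. In duodenum Adh4 had 5029 and 2748, 1.83-fold lower, so it was lower in the transgenic pool of both tissues. Aldh3a2, the fatty aldehyde dehydrogenase of the endoplasmic reticulum, had 6304 and 2607 in liver, 2.42-fold lower, and 2162.5 and 1735 in duodenum. Each is read by 1 probe set. On the hybridization-control scale both stayed below 0 in liver, at log2 ratios of -0.73 and -0.52.

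The 3 higher members were dim in wild-type liver. Fmo4 had 76.2 in wild-type and 436 in transgenic liver, at least 3.37-fold higher. Akr1c18, a steroid dehydrogenase that inactivates progesterone, had 34.8 and 365, at least 2.82-fold higher. Cbr3, a carbonyl reductase gene of the NRF2 response, had 139 and 324, 2.34-fold higher. None of the 3 reached 2-fold once the floor was raised to the 60th percentile, which gave log2 ratios of 0.71, 0.45 and 0.28.

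That liver pool also had more signal of several gut markers. Of enterocyte markers, 3 of 8 were higher by 2-fold or more (4.72% of all genes) and 0 lower. Of measured goblet, Paneth, and stomach and Brunner gland markers, 2 of 3, 1 of 3 and 2 of 7 were higher by that much and 0 lower. The stomach and Brunner gland markers were mixed, with 3 above 0, 4 below 0 and a median log2 ratio of -0.26. Among these Tff2 had 84.2 in wild-type and 2059 in transgenic liver, at least 15.9-fold higher. The enterocyte markers' summed signal was 21576 in wild-type and 33385 in transgenic liver, against 258662 in wild-type duodenum. In wild-type liver 3 of these 8 were below the floor, and in transgenic liver 0. Stellate cell and fibroblast markers were higher too, at a summed signal of 8183 and 24058, with 6 of 8 at 2-fold or more. In transgenic liver Fmo4 stood at 44.4% of its wild-type duodenal signal, where the 8 enterocyte markers stood between 1.16% (Alpi) and 32.6% (Apoa4), with Vil1 at 1.48% and Lct at 1.51%. Cbr3 stood at 140% of its wild-type duodenal signal, and Akr1c18 was below the floor in wild-type duodenum. The part of gut cells or of stellate cells in the values of Fmo4, Cbr3 and Akr1c18 was not tested.

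Among members between 1.5-fold and 2-fold in liver, 3 Aldh genes were higher. Aldh18a1, of proline synthesis, had 232 and 444, 1.91-fold higher. Aldh3b1, a membrane-bound dehydrogenase of lipid aldehydes, had 192 and 358, 1.87-fold higher. Aldh16a1, an unusual member of the family, had 926 and 1693, 1.83-fold higher, and its other probe set was 1.48-fold higher. Of the remaining probe sets of Aldh18a1, 1 was 1.57-fold higher and another at least 1.72-fold higher. The others lay below the floor on both liver arrays, and the mean over all its probe sets gave a log2 ratio of 0.16.

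The 3 members between 1.5-fold and 2-fold lower in liver were Akr1c6 (45684 and 29856.5), Fmo2 (2283 and 1501.5) and Aldh9a1 (9820 and 6539), at 1.53-fold, 1.52-fold and 1.5-fold. On the hybridization-control scale these 3 turned positive, at log2 ratios of 0.14, 0.15 and 0.17. For Fmo2 the 3 other probe sets above the floor also pointed down.

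Bright members were mostly a little lower in transgenic liver. Of the 27 measured members with a mean log2 signal of at least that of 1000, a limit chosen after the values were seen, 19 had a log2 ratio below 0, with a median of -0.36. Of the 3883 genes that bright, 1850 were below 0, with a median of 0.02. Hepatocyte markers moved with them: 9 of 9 were below 0, with a median of -0.49, and their summed signal was 611477 in wild-type and 447581 in transgenic liver. Under quantile normalization the bright members had a median of -0.20 and the hepatocyte markers one of -0.02; on the hybridization-control scale both medians were above 0, at 0.38 and 0.26. The part of hepatocyte content in the members' values was not tested. Adh1, at 59697 and 42674, Aldh2, at 20384 and 15537, and Fmo1, at 10728 and 7774, were 1.40-fold, 1.31-fold and 1.38-fold lower.

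Against this drift Akr1a1 was higher in transgenic liver on each of its 4 probe sets. The brightest had 21940 in wild-type and 32425.5 in transgenic liver, 1.48-fold higher, and the others were 1.45-fold, 1.61-fold and 1.76-fold higher. All 4 can bind several transcripts. In duodenum all 4 were also higher, between 1.15-fold and 1.5-fold.

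Aldh3a1, the member best known as an AhR target, stayed near the floor. On its 1 probe set the liver signals were 99.5 (wild type) and 151 (transgenic), and the duodenal signals were 131 and 85.6. The 6 other measured genes of the AhR battery were all higher by 2-fold or more in the transgenic liver pool, among them Cyp1a1 at 33.9-fold and Tiparp at 6.72-fold. Akr1b8, another gene of the NRF2 response, was 1.23-fold higher in liver, at 690.2 and 847. Of 12 further NRF2 genes measured, 3 were higher by 2-fold or more in this pool (4.72% of all genes) and 0 lower (3.58%). They were Nqo1 at 2.36-fold, Gsta2 at 2.17-fold and Ephx1 at 2.09-fold. The lists overlap: Nqo1 is also among the 6 AhR battery genes and in the list of other carbonyl and alcohol enzymes below.

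Promoter windows are shown for the 5 members that were 2-fold or more apart in liver and for Akr1c14, which had the largest duodenal difference, because AhR binds DNA at a core of GCGTG. Each window is 300 bases from RefSeq (GRCm38.p6), with 250 before and 50 after the start of 1 RefSeq transcript, written in the direction of the gene; other transcripts of a gene can start elsewhere. Capitals mark GCGTG or its reverse complement CACGC.
Adh4, chr3:138415247-138415546, plus strand: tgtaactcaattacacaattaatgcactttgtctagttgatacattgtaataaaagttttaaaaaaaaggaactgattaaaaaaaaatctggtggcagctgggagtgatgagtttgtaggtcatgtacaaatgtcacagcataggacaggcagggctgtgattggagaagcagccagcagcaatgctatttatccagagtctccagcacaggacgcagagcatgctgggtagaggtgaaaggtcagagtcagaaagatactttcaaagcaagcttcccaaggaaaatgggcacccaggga
Aldh3a2, chr11:61267137-61267436, minus strand: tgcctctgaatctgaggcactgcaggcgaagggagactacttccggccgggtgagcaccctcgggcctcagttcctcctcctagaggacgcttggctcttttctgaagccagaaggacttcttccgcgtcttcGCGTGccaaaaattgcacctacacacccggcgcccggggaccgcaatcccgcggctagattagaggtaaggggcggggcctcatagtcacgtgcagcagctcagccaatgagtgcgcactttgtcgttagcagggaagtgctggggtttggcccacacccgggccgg
Cbr3, chr16:93682969-93683268, plus strand: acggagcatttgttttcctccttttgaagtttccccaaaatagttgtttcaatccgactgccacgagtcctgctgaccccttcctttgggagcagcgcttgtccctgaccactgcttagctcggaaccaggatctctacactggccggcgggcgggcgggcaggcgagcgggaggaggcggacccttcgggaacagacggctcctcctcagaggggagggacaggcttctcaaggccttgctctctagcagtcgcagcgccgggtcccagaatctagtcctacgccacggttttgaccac
Fmo4, chr1:162812500-162812799, minus strand: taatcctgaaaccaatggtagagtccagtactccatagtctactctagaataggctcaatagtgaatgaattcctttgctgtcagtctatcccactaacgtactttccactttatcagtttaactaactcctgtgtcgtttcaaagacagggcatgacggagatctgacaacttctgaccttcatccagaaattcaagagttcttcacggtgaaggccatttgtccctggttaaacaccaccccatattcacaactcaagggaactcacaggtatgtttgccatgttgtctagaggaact
Akr1c18, chr13:4150597-4150896, minus strand: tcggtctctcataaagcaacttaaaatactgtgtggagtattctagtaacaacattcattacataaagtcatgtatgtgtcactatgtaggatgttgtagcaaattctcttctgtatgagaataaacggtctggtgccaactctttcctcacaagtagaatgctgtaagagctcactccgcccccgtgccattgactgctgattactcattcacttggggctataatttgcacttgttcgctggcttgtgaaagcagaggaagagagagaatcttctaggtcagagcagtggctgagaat
Akr1c14, chr13:4059341-4059640, plus strand: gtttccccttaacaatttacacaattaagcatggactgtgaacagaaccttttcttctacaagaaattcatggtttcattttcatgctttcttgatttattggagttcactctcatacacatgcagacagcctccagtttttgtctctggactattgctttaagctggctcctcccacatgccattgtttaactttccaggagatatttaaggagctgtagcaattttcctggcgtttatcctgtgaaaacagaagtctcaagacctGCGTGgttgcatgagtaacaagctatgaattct

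Aldh3a2 held 1 GCGTG, beginning 117 bases before the start, and Akr1c14 held 1, at base 18 of the transcript. The windows of Adh4, Cbr3, Fmo4 and Akr1c18 held no match. Of 40 windows of 37 members, 11 (27.5%) held the motif on either strand, against 32.4% of all 32851 windows. The NRF2-type motif TGACNNNGC, whose matches here overlapped none of the first motif, was in 4 of the 40 member windows (10.0%), those of Adh6a, Akr1c19, Akr1cl and Aldh9a1, against 12.4% of all windows. The windows of 9 members, Aldh2, Aldh3a1 and Fmo1 among them, were not analysed here.

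The third comparison set transgenic against wild-type duodenum. Of 42 measured members, 4 were 2-fold or more higher, where 8.74% of all genes were, and 4 were 2-fold or more lower, where 11.1% of all genes were. The median log2 ratio was -0.05 for the members and -0.11 for all genes. At 1.5-fold or more, 12 members were higher (19.2% of all genes) and 10 were lower (25.9% of all genes). The duodenal pools differed in other ways: exocrine pancreas markers had a summed signal of 1941 in wild-type and 90332 in transgenic duodenum, and stomach and Brunner gland markers had 3814 and 159208. Enterocyte markers had a summed signal of 258662 and 359833, with 5 of 8 higher by 1.5-fold or more, 0 lower and a median log2 ratio of 0.84. The Gapdh ratio of 3′ over 5′ signal, which rises as RNA breaks down, was 1.03 and 3.07 in these pools, and 0.608 and 0.719 in the liver pools. For Actb the same ratio was 1.77 and 2.69 in duodenum, a smaller gap, and 1.51 and 1.38 in liver. The part of these in the duodenal values was not tested.

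Akr1c14, which inactivates androgens and other steroids, had the largest duodenal difference of any member. Its signal was 2577 in wild-type and 245 in transgenic duodenum, 10.5-fold lower, and 8488 and 9352 in liver, 1.10-fold higher. Its liver excess over duodenum was therefore 3.29-fold in the wild-type pair and 38.2-fold in the transgenic pair. The value rests on 1 probe set and lay between log2 ratios of -3.49 and -3.27 under the 7 alternative settings. The mean over probe sets, the omission of multi-transcript probe sets and the lower floor could not change it.

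Other steroid-type Akr genes were lower as well. Akr1c19 had 6579 in wild-type and 2487 in transgenic duodenum, 2.65-fold lower. Akr1d1 had 289 and 101, at least 2.24-fold lower. Its other probe set, bright in liver at 4200 and 3680, had 6.4 and 87.4 in duodenum. Both lie below the floor, so that probe set gives no duodenal ratio. Akr1c12 and Akr1c13 had 6790 and 3941, and 17201 and 12137, which are 1.72-fold and 1.42-fold lower. Akr1c18 differed from these, at 117 and 297, at least 2.29-fold higher, as in liver. Akr1c21, at 111 and 222, was at least 1.72-fold higher. Raising the floor to the 60th percentile took Akr1d1 and Akr1c18 below 2-fold, to log2 ratios of -0.12 and 0.16; Akr1d1 also fell short under quantile normalization, at -0.91, and loess, at -0.70. Of 7 measured genes of the Akr1c run, 4 were lower in duodenum and 3 higher. The 3 higher ones, Akr1c18, Akr1c20 and Akr1c21, lay below the floor in wild-type duodenum, so their folds are bounds. With the floor at the 60th percentile, Akr1c20 and Akr1c21 gave no duodenal ratio.

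Fmo4 was lower in transgenic duodenum, at 982 and 333, 2.95-fold, while it was higher in liver. Fmo1 had 845 and 426, 1.98-fold lower. Adh4, Adh7 and Adh6a were 1.83-fold, 1.72-fold and 1.66-fold lower, with signals of 488 and 284 for Adh7 and of 22460 and 13524 for Adh6a. Aldh8a1 was at least 1.95-fold lower, at 252 and 70.5. Adh1 was the exception among the Adh genes above the floor, at 26481 and 42379, 1.60-fold higher.

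Of the 12 members that were 1.5-fold or more higher in duodenum, 6 were Aldh genes. These were 6 of the 16 Aldh genes, and 1 was lower by that much, where 19.2% of all genes were higher and 25.9% lower. The Aldh genes had a median log2 ratio of 0.33 (0.07 without multi-transcript probe sets, and from 0.31 to 0.50 under the other 6 alternatives). Aldh16a1 had 1277 in wild-type and 3275 in transgenic duodenum, 2.56-fold higher, and its other probe set was 1.93-fold higher. Aldh1b1 had 3626 and 8733, 2.41-fold higher. Aldh9a1 had 11559 and 21455.5, 1.86-fold higher, with its other probe set 1.34-fold higher. Aldh1l1 had 1531 and 2776, 1.81-fold higher. Aldh7a1, at 170.0 and 292, was 1.72-fold higher, with a log2 ratio of 0.13 for the floor at the 60th percentile.

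Aldh2 had 1345 and 3045 in duodenum, 2.26-fold higher on its brightest probe set. Its 4 others ran from 1.64-fold lower to 3.49-fold higher, and the mean over probe sets gave a log2 ratio of 0.85. Akr7a5, an aldehyde reductase of succinic semialdehyde and aflatoxin products, had 3572 and 6245, 1.75-fold higher, with another probe set 1.81-fold higher. Fmo5 was 1.53-fold higher, at 5620 and 8605, but its other probe sets were 1.32-fold higher and 1.46-fold lower, and without multi-transcript probe sets its log2 ratio turned to -0.55. For Fmo2 the brightest probe set was 1.39-fold higher, while 2 others were 1.76-fold and 2.04-fold lower.

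**Figure D3:**
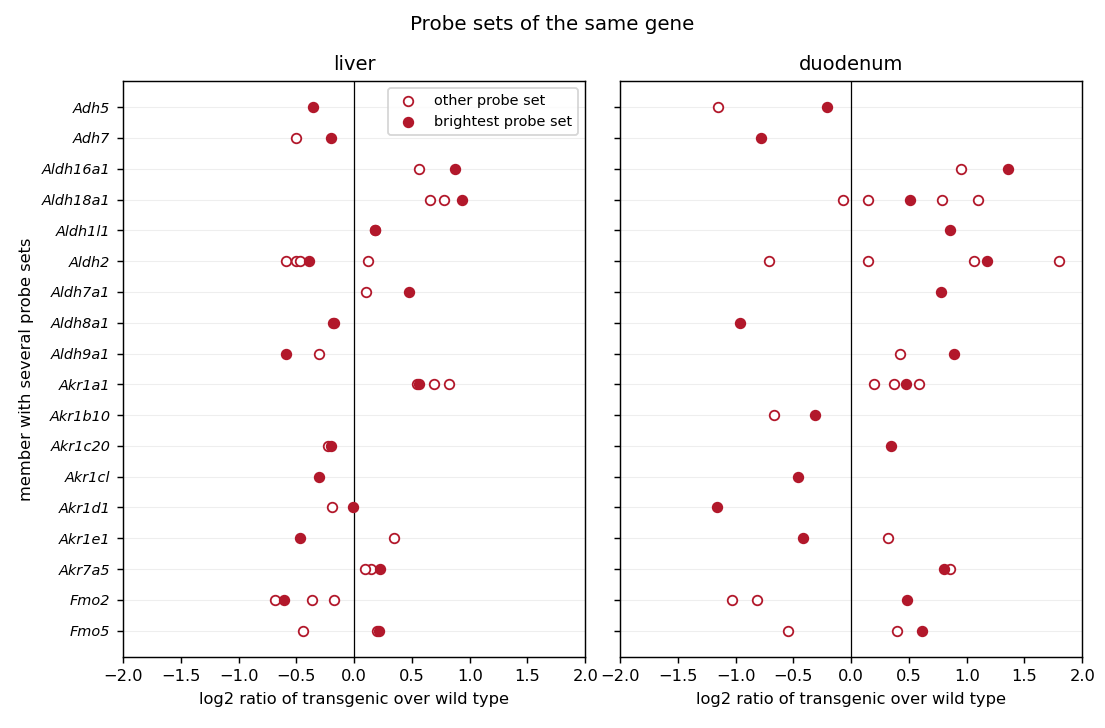
Log2 ratio of transgenic over wild type for each probe set above the floor on at least 1 array, for the 18 members with several probe sets, in liver (left) and duodenum (right); the filled point is the brightest probe set. In liver 22 of 25 other probe sets share the sign of the brightest and in duodenum 15 of 21. Aldh2, Aldh18a1, Akr1e1, Fmo2 and Fmo5 spread across 0 in duodenum.

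Across probe sets of the same gene, 22 of 25 further probe sets in liver pointed the same way as the brightest, and 15 of 21 in duodenum. At 1.5-fold or more the same way there were 6 in liver and 9 in duodenum.

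With both tissues measured for 40 members, 26 had the same sign of difference and 14 had opposed signs, where 54.1% of all genes had the same sign and 45.8% opposed signs. At 1.5-fold or more in both tissues, 3 were higher in both, namely Aldh16a1, Akr1c18 and Cbr3, and 1, Adh4, was lower in both, where 3.65% and 3.67% of all genes were. Cbr3 had 231 and 379 in duodenum, 1.64-fold higher. Fmo4 and Aldh9a1 were opposed at that size, as were 4.83% of all genes. In liver Aldh9a1 lay at the limit, and its other probe set was 1.24-fold lower. In the transgenic pair Fmo4 was 1.31-fold higher in liver than in duodenum, where in the wild-type pair it was at least 7.59-fold lower. No test of a difference between tissues was possible with 1 array per group.

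**Figure D4:**
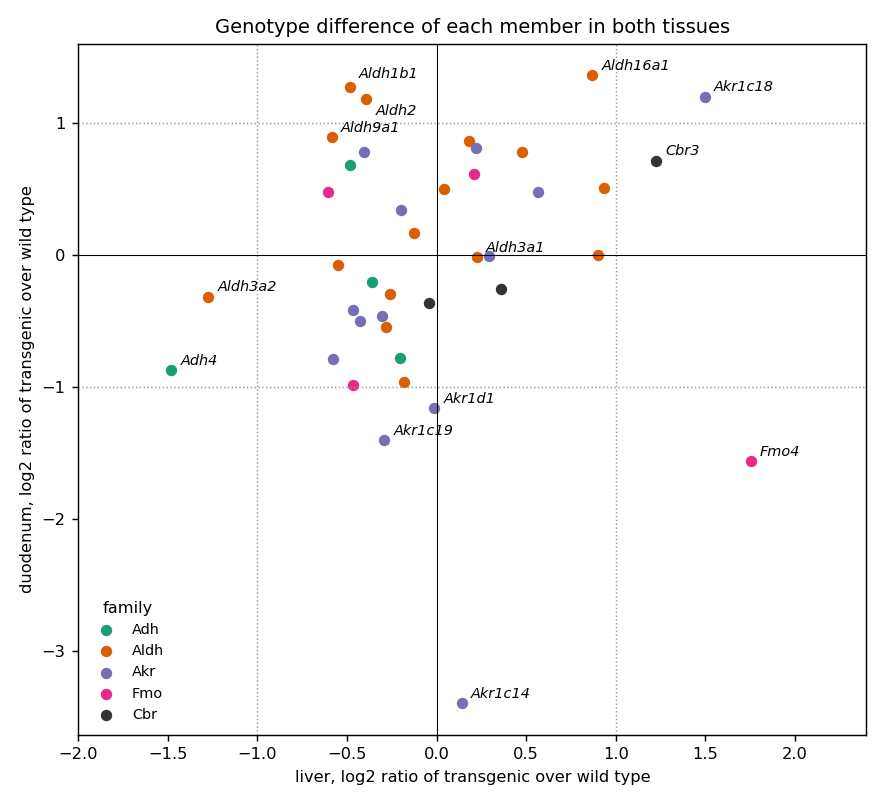
Log2 ratio of transgenic over wild type in liver (x axis) and duodenum (y axis) for the 40 members measured in both tissues, coloured by family; dotted lines mark 2-fold. Akr1c18 is the 1 member past 2-fold upward in both tissues, Fmo4 is opposed, and Akr1c14 lies far down in duodenum with no liver difference of that size.

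Other enzymes of carbonyl and alcohol metabolism came from a list of 55 further genes. In liver 5 of 47 measured were 2-fold or more higher (4.72% of all genes) and 2 lower (3.58% of all genes). Their median log2 ratio was -0.11. The higher ones were Ptgr1, a prostaglandin reductase (at least 3-fold), Dcxr, a xylulose reductase (2.59-fold), Hsd17b6, a steroid dehydrogenase (2.51-fold), Nqo1 and Aox1, an aldehyde oxidase (2.02-fold). Dcxr had 3487 in wild-type and 9036 in transgenic liver. The lower ones were Rdh11, a retinal reductase (2.28-fold), and Aldh1a1, a retinal dehydrogenase (2.05-fold). In duodenum 0 of 46 were 2-fold or more higher and 1 was lower, Hsd17b13, a lipid droplet enzyme (3.77-fold), so 2.17% differed by that much in either direction, against 19.0% of the 42 members and 19.8% of all genes.

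Beside the members' liver median of -0.18 with 5 of 43 at 2-fold or more, the cytochrome P450 families 2 and 3 had a liver median of -0.55, with 2 of 38 genes 2-fold or more higher and 10 lower. The glutathione, sulfo- and glucuronosyltransferase families had a liver median of -0.28, with 5 of 42 higher and 3 lower. Of all genes in liver, 4.72% were 2-fold or more higher and 3.58% lower. These differences between families were not tested.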

How the data were processed

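The authors deposited 1 value per probe set and array, a MAS5 signal intensity on a linear scale, as the submitters' processing notes say. The sources used here give neither the MAS5 version nor detection calls. Leaving out the extreme 2% at each end, every array had a mean of 500, so ratios are relative to that global scaling. A single symbol was listed for 34958 of 45101 probe sets, several for 932 (not used) and none for 9211; symbols were updated by Entrez identifier from RefSeq (GRCm38.p6), which served for names, order and promoters. For each of 18194 genes the brightest probe set by mean log2 signal was taken. Log2 ratios were computed on signals raised to a floor of 129.3, with genes below it on both arrays left out, in Python 3.11.15 with pandas 2.3.3, and tested on simulated data. Members were counted at 2-fold and 1.5-fold, without a test, since each group had 1 array; the number of arrays limits the precision. The members and lists were chosen with earlier results of these data known. Values were named for members 2-fold apart by genotype, for 2 bright members per family and tissue, and always for Aldh3a1, Cbr3, Adh7 and Fmo2; genes outside this rule were chosen after their values were seen. A further gene of that rule is not reported here. The tissue comparison in transgenic arrays and the limit at a signal of 1000 were added after the data were seen. Alternatives were 2 other floors, the mean over probe sets, omission of multi-transcript probe sets, quantile normalization, loess (statsmodels 0.14.6, span 0.3) and scaling on 18 spiked hybridization control probe sets.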

Additional observations from a re-analysis of the deposited data

Results flagged for a closer look

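Fmo4 was higher in transgenic liver, at a log2 ratio of 1.75, and lower in transgenic duodenum, at -1.56. Aldh9a1 had the opposite pattern, at -0.59 in liver and 0.89 in duodenum. Each was set apart because the tissues ran in opposed directions at 1.5-fold or more; the difference was not tested. In liver Aldh9a1 lay at that limit, and its other probe set was 1.24-fold lower. Its liver log2 ratio fell short of 1.5-fold as the mean over probe sets (-0.45), under quantile normalization (-0.53) and under loess (-0.48). On the hybridization-control scale Aldh9a1 turned to 0.17 in liver. A probe set listed for both Aldh3b2 and Aldh3b3, which no comparison used, was higher in transgenic than in wild-type liver at a log2 ratio of 0.97, with signals of 97.9 and 254; the other probe set with the same listing was at -1.04 in liver.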

How the results depend on the processing

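All 13 genotype values of members at 2-fold or more kept their direction under every alternative that gave a value (5 in liver and 8 in duodenum). Of these, 0 of the 5 in liver and 4 of the 8 in duodenum (Akr1c14, Akr1c19, Aldh16a1 and Fmo4) stayed past 2-fold under all. For Akr1c14, Akr1c19 and Fmo4, each read by 1 probe set, the mean over probe sets could not change the value. With the floor at the 60th percentile, 0 members were 2-fold higher in liver; with the floor at the 20th percentile, 6 were, 7 were higher in duodenum and the duodenal median was -0.16. At 1.5-fold the counts were 6 higher and 5 lower in liver, 12 and 10 in duodenum, and 10 lower in wild-type liver than duodenum. On the hybridization-control scale 11 members were higher and 0 lower in liver, the liver median was 0.55, the duodenal median -0.17 and the tissue median 0.98. That scaling moved the median of all genes in liver from 0.01 to 0.72, and the higher share of all 2-fold calls from 56.8% to 97.1%. The duodenal median was -0.31 without multi-transcript probe sets and 0.10 under quantile normalization, which with loess put the higher share of all duodenal calls at 58.5% and 61.9%, against 44.1%. The tissue median, 0.45, was 0.73 with the floor at the 60th percentile, 0.57 without multi-transcript probe sets, 0.56 under quantile normalization and 0.57 under loess. In each case the cause was not tested. No paired analysis was possible because each group holds 1 array. Values near the floor limit Fmo4, Akr1c18, Cbr3 and Aldh3a1.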
